A study of Mus musculus with 16 samples.

Results

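A set of 10 genes of the Hippo pathway, out of 47729 genes with values, were followed through control and damaged cochleae. They were chosen by gene symbol alone and comprised the coactivator genes Yap1 and Wwtr1, the transcription factor genes Tead1, Tead2, Tead3 and Tead4, the kinase genes Lats1 and Lats2, and the target genes Ankrd1 and Amotl2. All 10 were found, and 9 passed the filter on low values (0.5 CPM or more, reads per 1000000 counted reads, throughout the 4 libraries of some group), while Ankrd1 did not.

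RNA-seq was performed on 16 libraries from P4 mouse cochleae, with 4 libraries of whole-epithelium RNA (input) and 4 of ribosome-bound RNA (IP) from control and the same from DTR mice. Control mice were GLAST CreERT/+; Rpl22 HA/+ and DTR mice carried Lgr5 DTR-EGFP/+ in addition, so that the diphtheria toxin receptor was made under endogenous Lgr5 and the toxin removed Lgr5-expressing cells. According to the methods of the study, both genotypes were given diphtheria toxin and tamoxifen at P1, although the sample labels list the controls as having had no treatment. Each replicate was a pool of 8 cochleae from 4 mice, from which the lateral wall, the spiral ganglia and Reissner's membrane had been dissected away. In both genotypes the ribosomal protein Rpl22 carried an HA tag in GLAST-Cre cells. The homogenate of a pool was split, with 5% set aside as input and 95% used for the pull-down of tagged ribosomes.

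In the Hippo pathway, the kinases LATS1 and LATS2 phosphorylate the coactivators YAP and TAZ (the products of Yap1 and Wwtr1) and so keep them out of the nucleus. When the kinases are inactive, YAP and TAZ bind TEAD factors on DNA and switch on targets such as Ankrd1, Cyr61, Ctgf and Amotl2, and some targets, Lats2 and Amotl2 among them, feed back to restrain YAP. In the inner ear the pathway is known for limiting growth of the sensory epithelium and division of supporting cells.

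Counted reads ranged from 28089836 to 41966310 per library, so that 3 reads corresponded to 0.0715 to 0.107 CPM. The labels held for Lgr5, which fell from a mean of 63.3 CPM in control input to 15.9 CPM in DTR input and from 36.6 to 9.38 CPM in IP. For Slc1a3, which encodes GLAST, control IP averaged 236 ± 21.9 CPM against 281 ± 14.3 for control input (SD, n = 4). Markers of every other cell type listed (hair cells, mesenchyme, endothelium, Schwann cells, macrophages and neurons) were present in all groups, and none of their genes was at 0 throughout a group.

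TEAD factors bind the bases CATTCC, or GGAATG on the other strand. Both spellings were searched from 250 bases before to 50 bases after the start sites in RefSeq (GRCm38.p6), where 8 of the 10 genes had entries. The motif was present for 6 of those 8 genes, in 8 of their 12 windows, against 14.7% of 32851 windows of all genes. Windows of the same gene can overlap, and both Wwtr1 windows hold the same match, so the 12 windows are not separate. The share of all genes with a match in any window was not computed. The stretches around the motif are shown for the genes whose RNA was higher in DTR than in control cochleae and that had a match, on the strand of the gene with the motif in capitals. The Ankrd1 stretches lie at chr19:36120037-36120066 and chr19:36119950-36119979 (minus strand), with the motif 210 and 123 bases before the RefSeq start. Those of Amotl2 (chr9:102717727-102717756, plus strand) and Yap1 (chr9:8004720-8004749, minus strand) hold it 65 and 141 bases before the RefSeq start. In Lats2 (chr14:57746102-57746131, minus strand) it lies 4 bases after 1 of 2 starts listed in RefSeq. GENCODE M21, the source of the gene spans given below, places some starts farther upstream. There both Ankrd1 stretches fall in the untranslated part of 1 of 6 transcripts and upstream of the other 5, and the Amotl2 stretch falls in that of 2 of 14 transcripts. The Lats2 stretch overlaps the untranslated part of 3 of 9 transcripts, and the Yap1 stretch is upstream of all 10.
Ankrd1 distal: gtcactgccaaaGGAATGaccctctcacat
Ankrd1 proximal: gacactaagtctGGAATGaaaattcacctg
Amotl2: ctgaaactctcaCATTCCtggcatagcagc
Yap1: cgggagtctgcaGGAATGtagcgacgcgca
Lats2: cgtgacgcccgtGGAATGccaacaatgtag
The Ankrd1 window holds 2 copies and 1 of the Tead3 windows holds 3, where 1.36% of all windows hold 2 or more. These matches are a description of the letters, and binding was not measured.

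After damage, RNA of Amotl2, Tead1 and Lats2 was higher both in the whole epithelium and on tagged ribosomes, and Yap1 was higher in input. None of the 9 tested genes was called lower. In DTR IP against control IP, 3 of 9 passed the test (limma on log2 of quantile-normalized CPM + 0.5, Benjamini-Hochberg adjusted p under 0.05), all of them higher, where 8.44% of all 16994 tested genes were called higher and 7.3% lower. In DTR input against control input 4 of 9 were higher, where 7.17% of all tested genes were called higher and 5.21% lower. That count dropped from 4 to 2, through Yap1 and Tead1, without DTR input replicate 1 or 3 or control input replicate 3 or 4. The median log2 fold change (LFC) of the 9 genes was 0.22 in IP and 0.14 in input, and that of all tested genes was -0.0043 and -0.02. In tissue libraries of this kind, fewer cells of a type and less RNA per cell cannot be told apart.

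**Figure D1:**
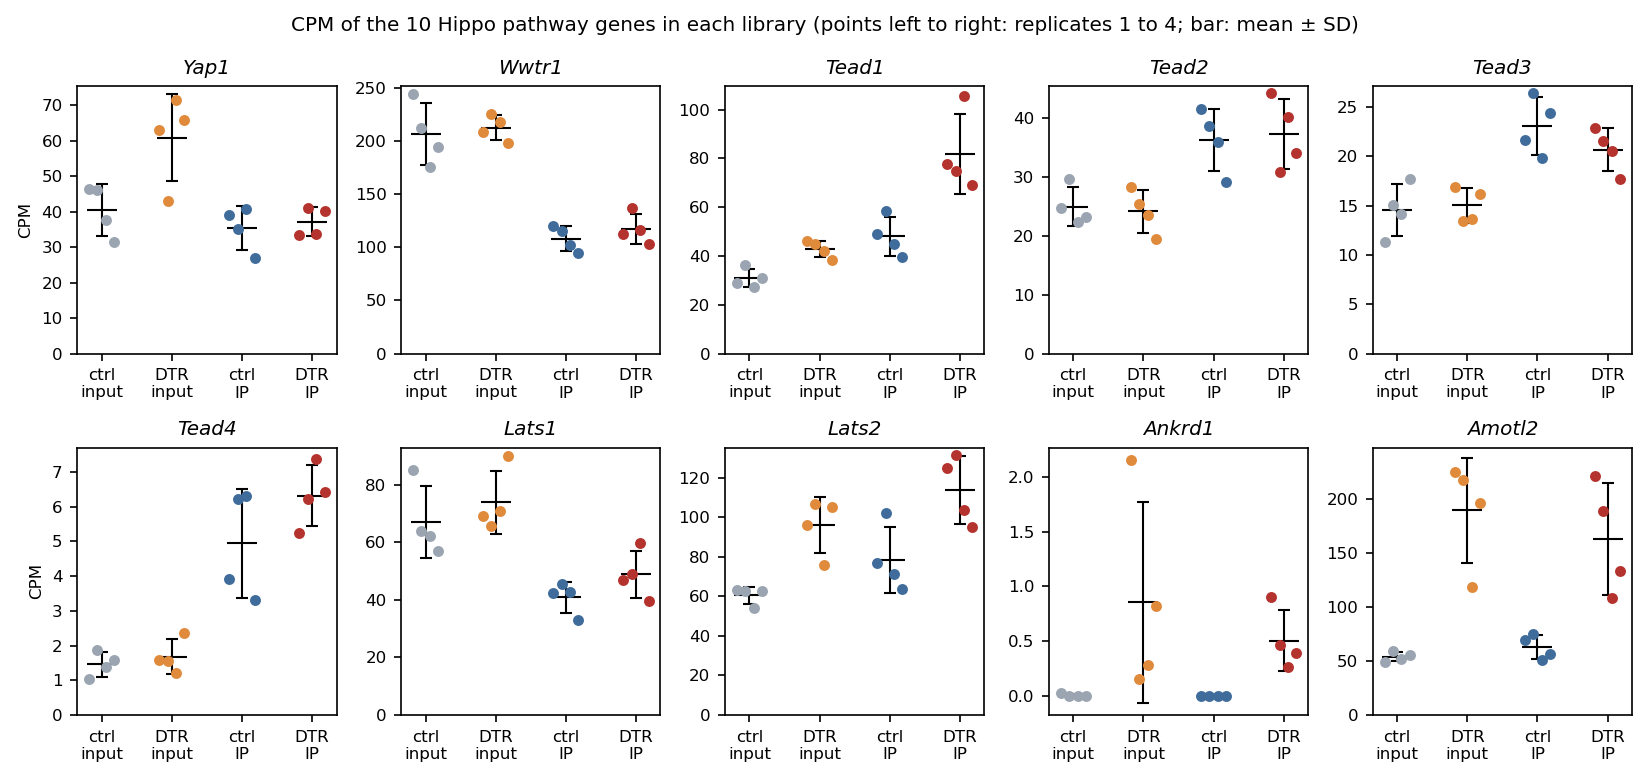
CPM (vertical axis, linear, a separate scale for each gene) of the 10 genes in control (ctrl) and DTR input and IP libraries; points are replicates 1 to 4 from left to right and bars give mean ± SD. All 4 DTR libraries of Amotl2 lie above all control libraries in input and in IP, Ankrd1 lies at or near 0 in every control library, and Wwtr1 is lower in every IP library than in every input library.

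Amotl2 (ENSMUSG00000032531, chr9:102716672-102733418, plus strand) encodes an angiomotin-family protein that holds YAP at cell junctions and is itself a YAP target. It was at 48.9, 58.8, 52.1 and 55.3 CPM in control input and at 225, 217, 119 and 196 CPM in DTR input (replicates 1 to 4, an order used throughout). On ribosomes control IP had 69.7, 74.9, 51.1 and 56.7 CPM and DTR IP had 221, 189, 108 and 133 CPM. The groups did not overlap in either fraction, and DTR replicate 3 was the lowest damaged pool both in input and in IP. The LFC after damage was 1.73 (SE 0.20, adjusted p = 6.3e-06 by limma) in input and 1.34 (SE 0.20, adjusted p = 0.00011) in IP. Amotl2 was the single gene of the 9 that also met the study's criteria for change after damage, an absolute LFC of at least 1 and a separation above 1.5. Separation is the lowest normalized value of the higher group over the highest normalized value of the lower group. It was 2.05 in input and 1.50002 in IP, at the limit of 1.5. Without normalization, the 108 CPM of DTR IP over the 74.9 CPM of control IP falls below that limit, so meeting it in IP depended on the normalization. These criteria were met, in the higher direction, by 1.34% of all tested genes in input and 1.12% in IP. Between IP and input the LFC of Amotl2 was 0.21 (95% interval -0.22 to 0.63) in control and -0.19 (-0.61 to 0.24) in DTR cochleae, and neither passed the test.

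Ankrd1 (ENSMUSG00000024803, chr19:36111961-36120099, minus strand) encodes a nuclear ankyrin-repeat protein and is a classical readout of YAP activity. It had 1, 0, 0 and 0 reads in control input and 0 reads in all 4 control IP libraries. In DTR input it had 73, 5, 11 and 27 reads, or 2.16, 0.153, 0.281 and 0.822 CPM. In DTR IP it had 28, 13, 8 and 12 reads, or 0.900, 0.463, 0.265 and 0.395 CPM. Every DTR library was thus above every control library, and pool 1 was the highest in both fractions. Set against the 3 reads that a count of 0 over the 4 control IP libraries allows, the 61 reads of DTR IP gave a 22.5-fold higher level. That value takes the 61 reads as exact. The exact two-sided permutation p was 0.029 on CPM, the lowest value possible with 4 against 4. In input 116 reads stood against 1, a ratio of 132 with an exact counting interval from 23.2 to 5250 (exact permutation p = 0.029). With the libraries of the same number paired, an exact sign-flip test gave p = 0.125 in each fraction, the smallest that 4 pairs allow. Without DTR input replicate 1 the mean in DTR input fell from 0.853 to 0.419 CPM, and 43 reads remained. With no filter on low values limma gave an adjusted p of 0.035 in input and 0.0999 in IP, while edgeR's quasi-likelihood test gave 0.00013 and 0.00039. The interval in input covers counting error only, and the 22.5-fold value covers only that of the control reads.

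Both LATS kinases were expressed, and only for Lats2 did the change after damage pass the test. Lats2 (ENSMUSG00000021959, chr14:57689662-57758388, minus strand) was at 63.0, 62.7, 53.9 and 62.5 CPM in control input and at 96.0, 107, 76.1 and 105 CPM in DTR input. In IP it was at 76.9, 102, 71.3 and 63.9 CPM in control and at 125, 131, 104 and 95.2 CPM in DTR cochleae. In input the groups were apart, whereas in IP the control pool 2, at 102 CPM, lay above the lowest DTR pool, at 95.2 CPM. The LFC was 0.64 (SE 0.13, adjusted p = 0.0023 by limma) in input and 0.53 (SE 0.13, adjusted p = 0.0081) in IP.

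Lats1 (ENSMUSG00000040021, chr10:7681214-7716460, plus strand) was at 85.3, 63.9, 62.1 and 57.0 CPM in control input and at 69.3, 65.9, 70.8 and 90.1 CPM in DTR input. In IP it was at 42.3, 45.4, 42.8 and 32.9 CPM in control and at 46.9, 49.2, 59.7 and 39.7 CPM in DTR cochleae. The damaged and control libraries overlapped in both fractions. The LFC after damage was 0.14 (95% interval -0.15 to 0.43) in input and 0.22 (-0.07 to 0.51) in IP. The log2 ratio of Lats2 to Lats1 CPM rose from -0.13 in control input to 0.37 in DTR input and from 0.93 in control IP to 1.22 in DTR IP, but neither difference passed the exact permutation test (two-sided, p = 0.057 and 0.14; 0.11 and 0.19 after Benjamini-Hochberg adjustment over 8 ratio tests).

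Of the 4 TEAD genes, which encode the DNA-binding partners of YAP and TAZ, Tead1 was the only one called after damage. Tead1 (ENSMUSG00000055320, chr7:112679318-112906807, plus strand) was at 29.1, 36.2, 27.4 and 31.0 CPM in control input and at 46.2, 44.9, 41.9 and 38.5 CPM in DTR input. In IP it was at 49.2, 58.5, 44.7 and 39.5 CPM in control and at 77.9, 74.7, 106 and 69.2 CPM in DTR cochleae. All DTR libraries lay above all control libraries of the same fraction, and the highest value came from DTR IP replicate 3. The LFC was 0.74 (SE 0.13, adjusted p = 0.00052 by limma) in IP and 0.45 (SE 0.13, adjusted p = 0.030) in input. The call in input was lost without control input replicate 1, 3 or 4 or DTR input replicate 1, 2 or 3, where the adjusted p ranged from 0.061 to 0.096.

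Tead2 (ENSMUSG00000030796, chr7:45215753-45233644, plus strand) had the highest level per kilobase of exon among the TEAD genes in every group. In mean CPM, without division by length, Tead1 was the highest in every group (30.9 against 24.9 for Tead2 in control input, 81.9 against 37.2 in DTR IP). Tead2 was at 24.7, 29.6, 22.2 and 23.1 CPM in control input, 28.2, 25.4, 23.5 and 19.4 CPM in DTR input, while in IP it was at 41.4, 38.5, 35.9 and 29.1 CPM (control) and 44.1, 30.8, 40.0 and 34.0 CPM (DTR). Its LFC after damage was 0.00 (95% interval -0.29 to 0.30) in IP and -0.06 (-0.36 to 0.23) in input. Control and DTR values overlapped in both fractions, and the sign of the change was not stable between tools.

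Tead3 (ENSMUSG00000002249, chr17:28331671-28350817, minus strand) was at 11.3, 15.1, 14.2 and 17.7 CPM in control input, 16.9, 13.5, 13.6 and 16.2 CPM in DTR input, while in IP it was at 21.6, 26.4, 19.8 and 24.5 CPM (control) and 22.9, 21.6, 20.5 and 17.8 CPM (DTR). Tead4 (ENSMUSG00000030353, chr6:128224288-128300823, minus strand) had the lowest level of them per kilobase of exon. It was at 1.02, 1.89, 1.38 and 1.58 CPM in control input, 1.60, 1.56, 1.20 and 2.38 CPM in DTR input, while in IP it was at 3.92, 6.23, 6.32 and 3.30 CPM (control) and 5.24, 6.23, 7.39 and 6.41 CPM (DTR). Neither gene passed the test after damage, and control and DTR values overlapped for both. The LFC in IP was -0.19 (95% interval -0.49 to 0.12) for Tead3 and 0.25 (-0.20 to 0.69) for Tead4.

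Summed per kilobase of exon, the 4 TEAD genes stood at 10.1 ± 1.13 CPM per kb in control input, 10.9 ± 1.00 in DTR input, 15.9 ± 1.89 in control IP and 18.6 ± 2.26 in DTR IP (SD, n = 4). Tead1 made up 22.6% ± 0.501 of this sum in control input and 29.0% ± 1.03 in DTR input, and 22.1% ± 1.22 in control IP and 32.2% ± 3.31 in DTR IP. Tead2 stayed the largest share, at 51.7% ± 3.55 in control input, 46.0% ± 3.60 in DTR input, 47.5% ± 3.55 in control IP and 41.7% ± 3.76 in DTR IP. The Tead1 shares of damaged and control libraries did not overlap, with the lowest DTR IP share at 28.9% and the highest control IP share at 23.9%. Shares are given as a description, without a test, and depend on the exon lengths used, 13.57 kb for Tead1 and 4.788 kb for Tead2.

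**Figure D2:**
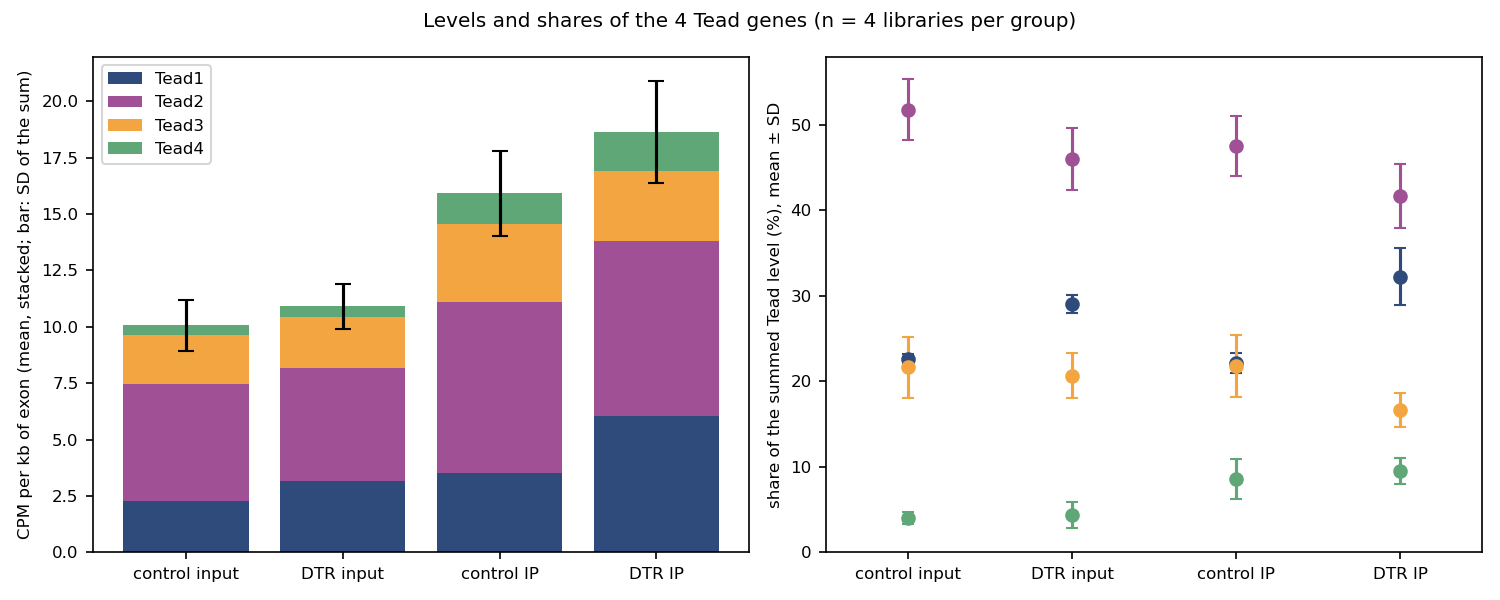
Left, mean CPM per kilobase of exon of Tead1 to Tead4 stacked by group, with the SD of the sum as error bar; right, share of each gene in that sum (%), mean ± SD of 4 libraries. The sum is higher in IP (15.9 and 18.6) than in input (10.1 and 10.9), and the Tead1 share is higher in DTR than in control libraries.

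Of the coactivators, Yap1 was called after damage in input and Wwtr1 in neither fraction. Yap1 (ENSMUSG00000053110, chr9:7931999-8004596, minus strand) was at 46.4, 46.1, 37.7 and 31.4 CPM in control input and at 63.0, 43.1, 71.3 and 65.7 CPM in DTR input. In IP it was at 38.9, 35.1, 40.7 and 26.9 CPM in control and at 33.4, 40.9, 33.7 and 40.2 CPM in DTR cochleae. Of the DTR input libraries 3 lay above every control input library, and replicate 2, at 43.1 CPM, lay among them, while in IP the groups covered the same range. The LFC after damage was 0.55 (SE 0.16, adjusted p = 0.031 by limma) in input and 0.04 (95% interval -0.31 to 0.38) in IP. The call in input was lost without control input replicate 3 or 4 or DTR input replicate 1, 3 or 4 (adjusted p from 0.075 to 0.12) and when only the compared groups entered the model (adjusted p = 0.051).

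The change of Yap1 after damage was smaller in IP than in input by 0.52 on the log2 scale (SE 0.23, unadjusted p = 0.038 by limma, adjusted p = 0.93), and thus was not called. No other of the 9 genes had an unadjusted p under 0.05 in this interaction test, and 0 of 9 were called, where 0.0118% of all tested genes were called and 870 had an unadjusted p under 0.05. edgeR and DESeq2 likewise called 0 of 9, with adjusted p of 0.79 and 0.76 for Yap1.

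Wwtr1 (ENSMUSG00000027803, chr3:57455649-57575910, minus strand), which encodes TAZ, was at 244, 212, 175 and 194 CPM in control input and at 208, 225, 218 and 198 CPM in DTR input. In IP it was at 120, 115, 102 and 95.0 CPM in control and at 113, 137, 116 and 104 CPM in DTR cochleae. Damaged and control values overlapped in both fractions, with an LFC of 0.07 (95% interval -0.15 to 0.29) in input and 0.10 (-0.11 to 0.32) in IP.

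**Figure D3:**
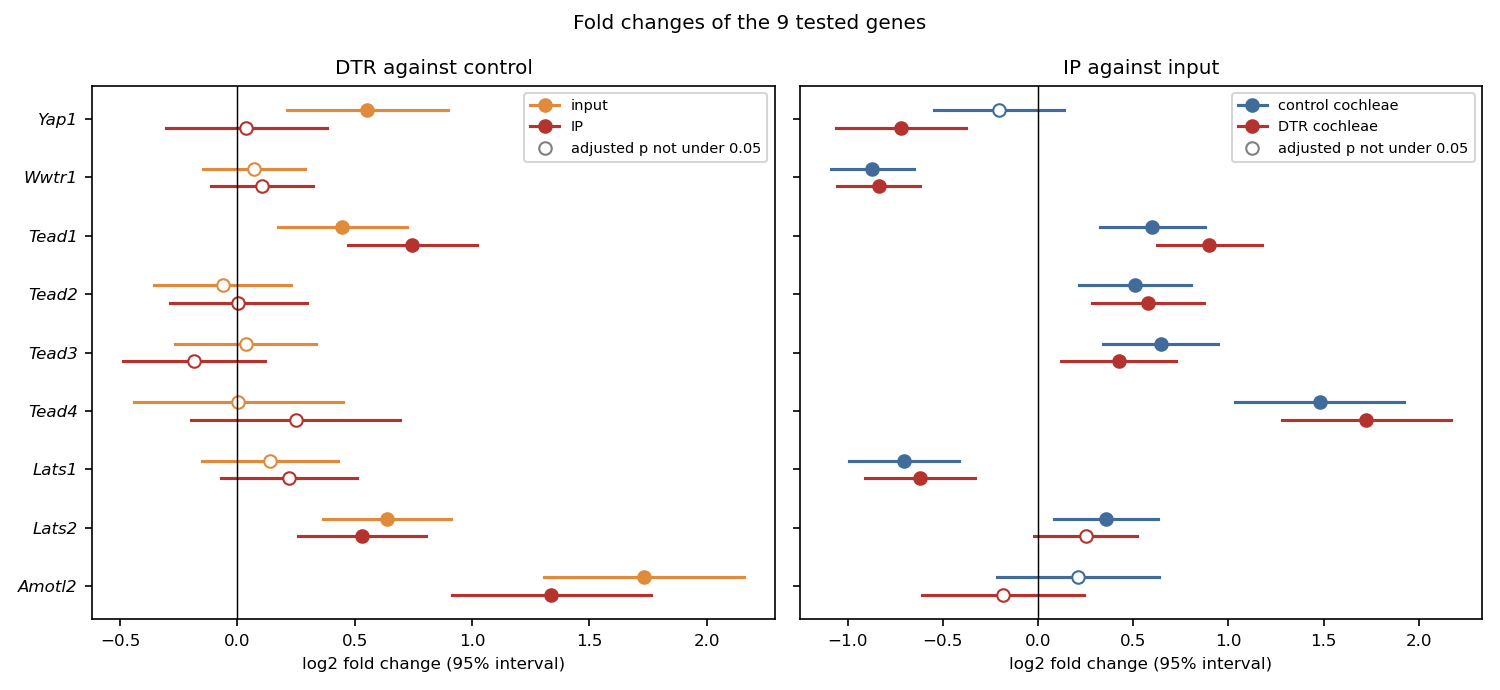
LFC with 95% interval of the 9 tested genes, left for DTR against control in input and IP, right for IP against input in control and DTR cochleae; filled points have an adjusted p under 0.05. Amotl2 has the largest LFC after damage (1.73 in input, 1.34 in IP) and Tead4 the largest between IP and input (1.48 in control, 1.72 in DTR cochleae).

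Per kilobase of exon, Wwtr1 had the highest level in control input (43.2 ± 6.16 CPM per kb), DTR input (44.5 ± 2.45) and control IP (22.6 ± 2.44), with no overlap with the next gene. In DTR IP, Amotl2 (25.9 ± 8.20) and Wwtr1 (24.5 ± 3.00) covered overlapping ranges. In control input Amotl2, at 8.55 ± 0.674 CPM per kb, overlapped Lats2 (8.68 ± 0.636), which overlapped Lats1 (9.19 ± 1.71). In DTR input Amotl2 came next after Wwtr1, at 30.1 ± 7.73 CPM per kb, and apart from Lats2 (13.8 ± 2.03). Yap1 was far below Wwtr1 in all groups, between 3.83 ± 0.662 CPM per kb in control IP and 6.56 ± 1.33 in DTR input. Tead4 and Ankrd1 had the lowest means in every group, and their ranges overlapped in DTR input.

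The comparison of IP with input asks which RNAs were relatively more abundant on the tagged ribosomes. All 4 TEAD genes were higher in IP than in input, in control and in DTR cochleae alike, whereas Wwtr1 and Lats1 were lower in both. In control cochleae 7 of the 9 genes passed the test, 5 higher and 2 lower, where 19.3% of all tested genes were called higher and 20.7% lower. In DTR cochleae 7 of 9 passed as well, 4 higher and 3 lower, where 18.6% of all tested genes were called higher and 20.5% lower. None of the 9 reached the LFC of 2 that the study required for enrichment. Slc1a3 itself was lower on average in IP, as given above. In control IP against input, 7 of 8 hair cell, 6 of 6 endothelium and pericyte, 6 of 6 macrophage and 5 of 6 mesenchyme markers were called lower. Of these, 1 hair cell marker was called higher. Also lower were 4 of 5 Schwann cell and 2 of 4 tested neuron markers. Of 8 supporting cell markers 2 were called higher and 3 lower, and of 4 markers of dividing cells 1 was called higher and 3 lower. The paper places GLAST-Cre cells in the greater epithelial ridge and among inner phalangeal cells, a supporting cell type. It reports a loss of inner phalangeal cells at P4 after damage, so the tagged cells of control and DTR mice may differ in kind. Of 5 markers of the greater epithelial ridge, 1 was called higher and 2 lower. They summed to 6287 to 10148 CPM in control input and 9472 to 10743 CPM in control IP. The bearing of these markers on the values of the 9 genes was not tested.

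Tead4 had the largest difference between IP and input, with an LFC of 1.48 (SE 0.21, adjusted p = 2.1e-05 by limma) in control and 1.72 (SE 0.21, adjusted p = 4.9e-06) in DTR cochleae, and no IP library overlapped an input library of the same genotype. Tead1 was higher by 0.60 and 0.90, Tead3 by 0.64 and 0.42, and Tead2 by 0.51 and 0.58 on the same scale, in control and DTR cochleae respectively. The control groups of Tead2 overlapped narrowly, with 29.6 CPM in the highest input and 29.1 CPM in the lowest IP library. The Tead3 call in DTR cochleae (adjusted p = 0.025) was lost without DTR IP replicate 1 or 2 or DTR input replicate 2 or 3, where the adjusted p ranged from 0.057 to 0.074, and in edgeR without a filter (0.056).

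Wwtr1 was lower in IP by an LFC of -0.87 (SE 0.10, adjusted p = 2.6e-06 by limma) in control and -0.84 (SE 0.10, adjusted p = 5.3e-06) in DTR cochleae. Yap1 was lower in DTR cochleae, with an LFC of -0.72 (SE 0.16, adjusted p = 0.0018), and had an LFC of -0.20 (95% interval -0.55 to 0.14) in control cochleae. As given above, the difference between these Yap1 values was not called. The log2 ratio of Wwtr1 to Yap1 CPM was 2.36 ± 0.198 in control input and 1.62 ± 0.213 in control IP (SD, n = 4), without overlap (two-sided p = 0.029 by an exact permutation test; 0.076 after Benjamini-Hochberg adjustment over the 8 ratio tests). It was 1.83 in DTR input and 1.66 in DTR IP, where the fractions overlapped (exact permutation p = 0.57; 0.65 after that adjustment).

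Lats1 was lower in IP by an LFC of -0.70 (SE 0.14, adjusted p = 0.00048 by limma) in control and -0.62 (SE 0.14, adjusted p = 0.0016) in DTR cochleae. Lats2 was higher in control IP by 0.36 (SE 0.13, adjusted p = 0.036), a call that was lost without control input replicate 1, 2, 3 or 4 or control IP replicate 1 or 2 (adjusted p from 0.053 to 0.14; LFC 0.23 at the lowest) and without quantile normalization (adjusted p = 0.060). In DTR cochleae the LFC of Lats2 was 0.25 (adjusted p = 0.14), which became a call with the replicate number as a block (adjusted p = 0.0498) but missed the threshold when pools were the block (0.0697). The log2 ratio of Lats2 to Lats1 CPM was 1.07 higher in control IP than in control input and 0.85 higher in DTR IP than in DTR input, with no overlap between fractions (exact permutation p = 0.029 for each; 0.076 after adjustment over the 8 ratio tests).

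Further genes of the pathway were read from a list of 30 upstream kinases, membrane and junction regulators, LATS-binding LIM proteins and TEAD cofactors, of which 27 were tested. In DTR IP against control IP 6 of these were higher and 2 lower, with a median LFC of 0.10 (all tested genes: 8.44% higher, 7.3% lower, median -0.0043). The largest rise was that of Ajuba, whose product binds LATS kinases and restrains them, from 93.9 ± 8.95 to 174 ± 20.3 CPM (SD, n = 4; LFC 0.91, adjusted p = 2.5e-05 by limma). Wtip, which encodes a protein of the same LIM family, was higher by 0.53 (adjusted p = 0.0015). Fat4, an atypical cadherin, rose by 0.77 (adjusted p = 0.00066) and Map4k4, a kinase that can activate LATS, by 0.66 (adjusted p = 0.00024). Wwc1, which encodes the LATS-binding scaffold KIBRA, fell from 173 ± 11.5 to 117 ± 22.3 CPM, an LFC of -0.59 (adjusted p = 0.0068). In input 3 of the 27 were higher and none lower, where the shares of all tested genes were 7.17% and 5.21%. These 3, named after their values were seen, were Ajuba (LFC 1.23), Wtip (0.46) and Fat4 (0.45).

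In control IP against control input 8 of the 27 were higher and 8 lower (19.3% and 20.7% of all tested genes), and in DTR cochleae 9 were higher and 9 lower (18.6% and 20.5%). The largest differences in control cochleae were those of Taok1 (LFC 1.34, adjusted p = 1.3e-05 by limma), a kinase upstream in the pathway, and of Nf2 (LFC -1.24, adjusted p = 3.0e-06), which encodes the scaffold merlin. Vgll4, which competes with YAP for TEAD factors, was higher by 0.83, Ajuba by 0.72 and Mink1, a relative of Map4k4, by 0.68. The scaffold genes Frmd6 and Wwc2 and the kinase gene Stk4 (MST1) were lower, with LFCs of -0.78, -0.76 and -0.75.

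Beyond Amotl2 and Ankrd1, 19 further YAP/TAZ target genes were read from a list, and all 19 were tested. In DTR IP against control IP 4 were higher and 3 lower, with a median LFC of 0.08, beside the same shares of 8.44% and 7.3% of all tested genes. Cyr61 and Ctgf, which encode secreted matricellular proteins and are the targets most often used as readouts, were both higher. Cyr61 went from 47.1 ± 3.33 to 108 ± 36.9 CPM in IP (SD, n = 4; LFC 1.15, SE 0.19, adjusted p = 0.00037 by limma) and from 47.3 ± 3.84 to 138 ± 40.5 CPM in input (LFC 1.46, adjusted p = 2.9e-05). Ctgf went from 46.3 ± 4.30 to 86.5 ± 16 CPM in IP (LFC 0.88, SE 0.16, adjusted p = 0.00054) and from 39.7 ± 7.56 to 78.8 ± 14 CPM in input (LFC 0.96, adjusted p = 0.00026). Named after their values were seen, the other higher ones in IP were Myof (LFC 1.07) and F3 (0.40).

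Igfbp3, which encodes a binding protein of insulin-like growth factors, had the largest change of the 19, and it was a fall. It averaged 1358 ± 73.1 CPM in control IP against 224 ± 39.6 in DTR IP (SD over 4 libraries), which is an LFC of -2.56 (SE 0.13, adjusted p = 8.0e-11 by limma). The paper counts Igfbp3 among markers of supporting cells and the greater epithelial ridge, whose fall after damage it reads as cell loss. That reading was not tested here. Dock5, a Rac exchange factor gene, had an LFC of -1.22 (adjusted p = 0.0050) and Tgfb2, which encodes a TGF-beta ligand, one of -0.42 (adjusted p = 0.0025). In input 3 of the 19 were higher and 3 lower, with a median LFC of 0.09 (7.17% and 5.21% of all tested genes).

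**Figure D4:**
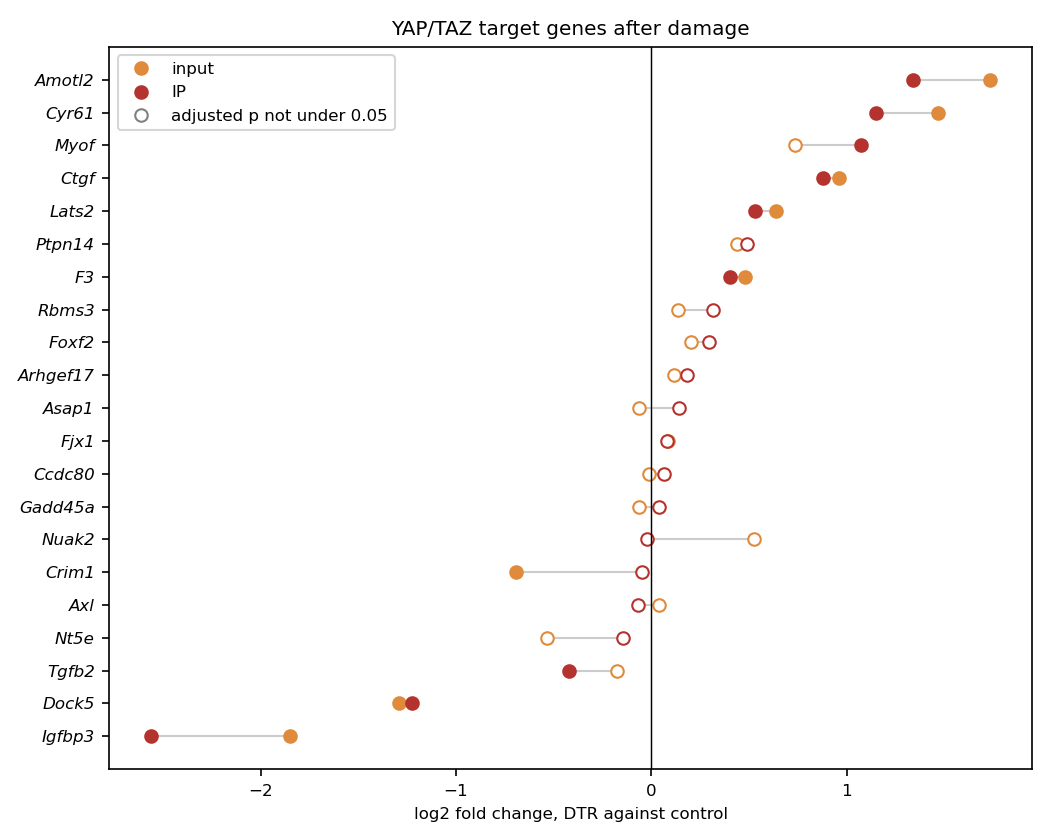
LFC of DTR against control (horizontal axis) for the 19 listed YAP/TAZ targets with Amotl2 and Lats2, ordered by the value in IP; orange is input, red is IP, and filled points have an adjusted p under 0.05. Amotl2 and Cyr61 are at the top (1.34 and 1.15 in IP) and Igfbp3 at the bottom (-2.56).

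Between IP and input of control cochleae 7 of the 19 targets were higher and 5 lower, where 19.3% and 20.7% of all tested genes were. Igfbp3 (LFC 1.33), the tissue factor gene F3 (1.32), the stress-response gene Gadd45a (1.17) and the kinase gene Nuak2 (1.16) were the highest by the rule for named genes. Among those lower were Crim1 (-1.25), the receptor kinase gene Axl (-0.92) and the ectonucleotidase gene Nt5e (-0.86).

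Over the 16 libraries, the genes whose pattern was most like that of Amotl2 were Hpx, Fos and Egr4 (Pearson's r of log2 normalized CPM 0.98 for each). Fos, an immediate early gene, had means of 5.89 CPM in control input, 55.6 in DTR input, 8.14 in control IP and 49.9 in DTR IP. The genes most like Yap1 were Smad5 (r = 0.88), Chtf8 (0.86) and Cotl1 (0.85), and Smad5, a BMP signal transducer, had its highest mean in DTR input, at 90.5 CPM. These values are a description of libraries that share group, pool and depth.

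Markers of several cell types also differed between control and DTR libraries. Of 6 mesenchyme markers 4 were called higher in DTR IP and 1 in DTR input, and their summed CPM ranged from 2243 to 3371 in control IP and from 3898 to 4710 in DTR IP, whereas in input it ranged from 5091 to 5814 and from 4739 to 6139. Of 6 macrophage markers 3 were called higher in each fraction, and they summed to 13.0 to 22.3 CPM (control) and 31.6 to 45.5 CPM (DTR) in IP, and to 87.7 to 94.4 and 115 to 188 in input. Of 5 markers of the greater epithelial ridge 2 were called lower and none higher in DTR IP, and 2 higher and 1 lower in DTR input. They summed to 9472 to 10743 CPM (control) and 9703 to 12083 CPM (DTR) in IP. In input the sums were 6287 to 10148 and 6265 to 7969 CPM. None of the 4 tested neuron markers was called in either fraction. The part of these cells in the values of Amotl2, Ankrd1, Lats2 and Tead1 was not tested.

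Of 8 supporting cell markers 6 were called lower in DTR IP, with sums of 2133 to 2672 CPM (control) and 1677 to 2313 CPM (DTR), as were 2 of 5 Schwann cell markers, with sums of 579 to 948 and 393 to 527 CPM. In DTR input 7 of the 8 and 3 of the 5 were called lower, and the Schwann cell markers summed to 1721 to 3175 CPM in control and 832 to 1222 CPM in DTR input. The part of supporting and Schwann cells in the levels of Yap1, Tead1, Lats2, Amotl2 and Ankrd1 was not tested. The 8 hair cell markers summed to 171 to 255 CPM (control) and 246 to 301 CPM (DTR) in IP, with 3 called higher and 1 lower. All 4 markers of dividing cells were called higher in DTR IP and 3 in DTR input, and they summed to 22.4 to 45.9 CPM (control) and 87.3 to 127 CPM (DTR) in IP. Of the 6 endothelium and pericyte markers 1 was called higher in DTR IP, and none was called in DTR input. Their sums in IP overlapped, at 122 to 174 CPM (control) and 165 to 222 CPM (DTR). Yap1, Tead2 and Lats2 share exon bases with other annotated genes, and the strand setting of the counting is not stated. The overlapping genes with values, Gm20416 for Yap1 and Cd37 for Tead2, reached at most 0.119 and 0.295 CPM.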

How the data were processed

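RNA was measured in 16 libraries, 4 per group, with replicates taken from the sample titles. The deposited values are CPM for each gene, scaled by the authors to the reads counted on genes. The study's methods name HISAT2 alignment and HTSeq counting, the submitters' processing notes name TopHat and GRCm38, and the annotation release and strand setting are not given in the sources used here. The SMART-Seq v4 library kit does not mark strand. Of 50316 genes listed, 2587 were NA in every library. Every column gave whole reads (tolerance 0.02 reads), which were used for edgeR and DESeq2. Counted reads ranged from 28089836 to 41966310 per library.

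CPM were quantile normalized and tested as log2(CPM + 0.5) with limma 3.58.1 (R 4.3.3; mean-variance trend, 16 libraries, 1 mean per group), in the 16994 genes that reached 0.5 CPM throughout the 4 libraries of some group. Fold changes are on this scale, which understates those of low genes. P-values were adjusted by Benjamini-Hochberg over all tested genes. Separation used normalized values raised to at least 1.08 CPM. For single values a two-sided exact permutation test was used. Gene positions and exon lengths (all annotated exons of a gene merged, not the length of a transcript) were from GENCODE M21 and promoters from RefSeq (GRCm38.p6). The Tead1 and Tead4 promoters were not analysed here.

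Named genes were the 10 Hippo genes, and per list and direction, in DTR IP against control IP and in control IP against control input, up to 4 called genes with the largest change and no overlap between groups. A gene that the rule covers is not reported here. The genes, the lists and the tests were chosen with earlier results of these data known. On simulated, independent libraries for DTR IP against control IP (16994 genes, 200 changed) limma recovered 86% of 2-fold and 30% of 1.5-fold changes. Of its calls 8.66% were false, at the threshold of 0.05. In the data same-numbered libraries deviated together and more genes were called (1434 higher, 1240 lower), so these rates need not hold there.

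Same-numbered libraries deviated together in every pair (correlation of deviations from group means at least 0.288). Input and IP of a number and genotype came from 1 homogenate, with a mean correlation of 0.373 in control and 0.407 in DTR cochleae. Control and DTR libraries of a number came from different pools, yet had means of 0.388 in IP and 0.357 in input. The main model left the number out. Differently numbered libraries reached at most 0.290. Their mean was below 0, which deviations from a group mean force, so it says nothing about pairing. The alternatives were no quantile normalization, median centring, pseudocounts of 0.1 and 1, no filter, a filter at 2 CPM, models of the compared groups alone, the number or the pool as a block, a correction for length and GC, edgeR 4.0.16 (quasi-likelihood), DESeq2 1.42.0, and each library left out. edgeR without a filter and the exact and paired tests of Ankrd1 were added after seeing the data.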

Additional observations from a re-analysis of the deposited data

Results flagged for a closer look

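Of 39 groups of 4 libraries tested for a sample far from the others (Dixon's ratio of the gap to the range above the 95% critical value), 2 had one, and chance gives about 1 in 20. Lats2 in control input replicate 3 was the lowest, at 53.9 CPM with the nearest library at 62.5 CPM (ratio 0.944). Ankrd1 in control input replicate 1 was the highest of its group (ratio 1), through a single read where the other libraries had 0.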

How the results depend on the processing

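The calls of Amotl2, Tead1 and Lats2 in DTR IP and of Amotl2 and Lats2 in DTR input held under every alternative run. The number of Hippo genes called in DTR input against control input was 2 to 4 with single libraries left out, and 2 without DTR input replicate 1 or 3 or control input replicate 3 or 4, through Yap1 and Tead1. Without a filter limma gave adjusted p of 0.066 for Yap1 and 0.051 for Tead1 in input and 0.071 for Lats2 in control IP, where more genes were tested. edgeR without a filter gave 0.057, 0.082 and 0.068 for these and 0.056 for Tead3 in DTR IP against DTR input. With single libraries left out, 3 genes were called in DTR IP against control IP, 6 to 7 in each comparison of IP with input and 0 in the interaction, and the block and the length and GC correction gave up to 8 between IP and input. The causes of these losses were not tested.

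The replicate number as a block made Lats2 a call in DTR IP against DTR input (LFC 0.25, adjusted p = 0.0498; 0.0697 for Lats2 with the pool as a block), as did the length and GC correction (0.36, adjusted p = 0.020), and the pool as a block with that correction made Amotl2 one in control IP against control input (0.30, adjusted p = 0.013). No other call of the 9 tested genes changed with the block. Over pairs of the same number, the log2 ratios of Wwtr1 to Yap1 (-0.74) and Lats2 to Lats1 (1.07) in control IP against input and of Lats2 to Lats1 in DTR cochleae (0.85), and Ankrd1 CPM after damage (0.506 higher in IP, 0.847 in input), each had an exact sign-flip p of 0.125, the smallest that 4 pairs allow.

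Small changes that never passed the test turned sign. For Yap1 in DTR IP against control IP the LFC was -0.0232 with the length and GC correction (with and without the block), -0.0221 in edgeR without a filter, -0.0028 in edgeR and -0.00028 in DESeq2. For Tead2 in the same comparison it was -0.0060 with median centring, -0.0340 in edgeR, -0.0318 in DESeq2 and -0.0540 in edgeR without a filter. In input it was -0.0080 for Tead4 with the length and GC correction, and -0.0401 for Wwtr1 and -0.0352 for Tead3 in edgeR without a filter. With 1 library left out, the LFC ranged in IP from -0.0503 to 0.117 (Yap1) and -0.0619 to 0.0895 (Tead2). In input it ranged from -0.128 to 0.0501 (Tead2), -0.0761 to 0.141 (Tead3) and -0.148 to 0.0980 (Tead4). In the interaction it ranged from -0.0376 to 0.1 (Wwtr1), -0.0457 to 0.152 (Tead2), -0.0235 to 0.177 (Lats1) and -0.197 to 0.0155 (Lats2). Depth limits Ankrd1 most, with at most 73 reads in a library.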
